A study of Drosophila melanogaster with 69 samples.

Results

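The H3K9me2-only sites of late embryos are regions of the chromosome arms where control embryos of stage 17 had a peak of dimethylated histone H3 lysine 9 (H3K9me2), no peak of the trimethylated form (H3K9me3) at that stage, and no H3K9me2 peak at cycle 14. They were selected on 4 deposited peak lists: a peak of the pooled H3K9me2 list of stage 17 was kept when it shared no base with either H3K9me3 list of control stage 17 embryos (made in 2 experiments) nor with the H3K9me2 list of control embryos at cycle 14. The H3K9me2 lists of stage 17 and cycle 14 come from experiments of different dates, so stage and experiment cannot be told apart in this step. Only peaks with their midpoint on 2L below 22 Mb, 3L below 23 Mb, 3R from 4.5 Mb or X below 22 Mb were kept, so the pericentromeres, chromosome 4 and 2R are left out. This gave 2832 sites out of the 5691 peaks of the list on these arms (49.8%) and the 9904 peaks of the whole list, while the series holds 75377 peaks in 22 lists. The other arm peaks served as 2 classes for comparison: 2633 peaks that shared a base with H3K9me3, and 226 peaks without H3K9me3 that already had an H3K9me2 peak at cycle 14.

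CUT&Tag was carried out on 69 samples of Drosophila melanogaster embryos. In this assay an antibody brings a transposase to its target and the tagged DNA around it is sequenced. The triple mutant is homozygous for a knockout of Su(var)3-9 and carries short hairpin RNAs against dSetDB1 and G9a that are driven in the mother's germline by maternal tubulin Gal4, which lowers the maternal supply of these enzymes without deleting their genes. The zygotic rescue has triple mutant mothers and fathers with a hairpin-resistant dSetDB1 transgene and wild type Su(var)3-9, the maternal rescue has 1 endogenous hairpin-resistant dSetDB1 copy in the mother, and the control is the T180 line. Early lists of H3K9me2 and H3K9me3 cover 3 stages of triple mutant and control (earlier than cycle 9, cycle 9-13, cycle 14), those of HP1a only cycle 14, and those of stage 17 come from the triple mutant and both rescues (H3K9me3) and from control (H3K9me3, H3K9me2 and histone H3, the loading control). Each sample was a pool of whole embryos, so a site marked in few cell types and one marked weakly in many cannot be told apart. The lists pool the samples of a condition, and only control H3K9me3 of stage 17 has 2 lists, from separate experiments, so there was no replicate error and no test between conditions, and the 95% Wilson intervals given here cover counting error over peaks only.

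In flies, methylation of H3K9 is deposited by dSetDB1, Su(var)3-9 and G9a. H3K9me3 with HP1a, a protein that binds methylated H3K9, is the hallmark of constitutive heterochromatin at the pericentromeres and over transposable elements. H3K9me2 also occurs at silent sites on the arms, and G9a is the enzyme known chiefly for its activity on euchromatin.

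The reference sequence at the middle of the 4 sites with the highest fold shows what the strongest of these regions consist of, all within 250 bp of the start of a gene. All are 300 bases of the plus strand of dm6 (Release 6), at chr3R:15973561-15973860, chr3L:17487042-17487341, chr3L:16011527-16011826 and chr3L:12533625-12533924, and capitals mark GAGAG or its reverse complement CTCTC, the core of GAGA repeats.
Hel89B start: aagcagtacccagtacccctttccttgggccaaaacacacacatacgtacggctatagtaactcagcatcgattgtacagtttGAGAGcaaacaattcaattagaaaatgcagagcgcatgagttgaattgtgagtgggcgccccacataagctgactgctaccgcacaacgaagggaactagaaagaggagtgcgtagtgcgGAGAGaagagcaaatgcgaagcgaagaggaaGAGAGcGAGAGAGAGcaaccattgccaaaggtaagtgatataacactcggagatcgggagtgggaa
Oatp74D start: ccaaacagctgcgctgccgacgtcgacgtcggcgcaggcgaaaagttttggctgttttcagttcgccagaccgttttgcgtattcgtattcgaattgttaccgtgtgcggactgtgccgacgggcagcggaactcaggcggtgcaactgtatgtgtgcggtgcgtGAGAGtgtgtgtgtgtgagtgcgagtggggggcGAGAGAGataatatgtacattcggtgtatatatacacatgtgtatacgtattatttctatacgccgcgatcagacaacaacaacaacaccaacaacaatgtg
mib1 start: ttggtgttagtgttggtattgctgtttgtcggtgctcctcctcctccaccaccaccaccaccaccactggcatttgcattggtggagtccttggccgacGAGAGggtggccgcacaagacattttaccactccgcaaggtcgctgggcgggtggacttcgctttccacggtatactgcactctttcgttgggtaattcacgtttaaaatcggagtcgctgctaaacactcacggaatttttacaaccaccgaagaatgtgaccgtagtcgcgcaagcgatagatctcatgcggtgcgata
CG34242 and Tsf2: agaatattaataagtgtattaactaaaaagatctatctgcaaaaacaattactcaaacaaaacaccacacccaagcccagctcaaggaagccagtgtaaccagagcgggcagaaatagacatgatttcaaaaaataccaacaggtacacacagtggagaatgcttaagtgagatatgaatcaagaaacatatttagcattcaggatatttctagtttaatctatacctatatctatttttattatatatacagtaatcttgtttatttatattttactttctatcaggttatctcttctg
With overlapping matches counted, the Hel89B window held 6, the Oatp74D window 3 and the mib1 window 1, so the strongest site had the most. The window at CG34242 and Tsf2 held 0 and had a GC content of 31.0%, against 48.3% for Hel89B, 51.0% for Oatp74D and 52.7% for mib1.

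The sites were modest enrichments. Since the H3K9me2 list chose them, its values are a description: their fold over the list's own background had a median of 2.00 (range 1.41 to 3.11), against 2.01 in the peaks seen at cycle 14 and 2.07 in the peaks with H3K9me3. Their median width was 502 bp (range 247 to 2697 bp), against 650 bp and 814 bp. Their median −log10 q was 1.64, against 1.83 and 2.15, and 832 of 2832 (29.4%) reached a −log10 q of 2, against 86 of 226 (38.1%) and 1497 of 2633 (56.9%). A −log10 q under that of a q of 0.05, the threshold stated for the peak caller, was listed for 580 sites (20.5%). The same held for 41 of 226 (18.1%) of the peaks seen at cycle 14 and 188 of 2633 (7.14%) of those with H3K9me3. Over all arm peaks of the list the share was 14.2%.

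At the lower edge of the rule, the 3 weakest members were in CG9257 (chr2L:21103685-21104052, −log10 q 1.02), CG31368 (chr3R:11888773-11889369, 1.03) and an intron of trol, which encodes the basement membrane protein perlecan (chrX:2485585-2485888, 1.03). Just outside the rule, the strongest H3K9me2 peaks left out by a single list were at the starts of CG2519 (chr3R:5547138-5547844, fold 3.30), dop, a microtubule-associated kinase (chr3L:15565791-15567011, fold 3.04), and CG5515 (chr3R:24188630-24188941, fold 2.98). All 3 were left out by the H3K9me3 list of the same experiment as the H3K9me2 list. That list alone left out 693 arm peaks and the H3K9me3 list of the other experiment alone left out 71, so the border of the class depends on which H3K9me3 library is used. Absence from a list also depends on depth: the background worked out from fold and p was 9.44 fragments per base in the H3K9me2 list, 7.70 and 8.82 in the H3K9me3 lists of the same and the other experiment, and 15.8 in the H3K9me2 list of cycle 14. Arm peaks with a fold below 2.00, the median of the sites, made up 637 of 3193 (19.9%) and 791 of 2401 (32.9%) in those H3K9me3 lists, so weak H3K9me3 at a site may go uncalled and is not shown to be absent.

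The sites were spread along the arms. With each analysed arm cut into 4 equal parts from telomere to centromere, 762, 700, 630 and 740 of the 2832 sites fell in each part (26.9%, 24.7%, 22.2% and 26.1%), and the peaks with H3K9me3 had 670, 620, 583 and 760 of 2633. The classes differed more by chromosome. The sites were densest on 3R, with 34.4 per Mb (949 sites), followed by 3L with 30.2 (695), 2L with 29.4 (646) and X with 24.6 (542). The peaks with H3K9me3 were sparsest on 3R (23.6 per Mb) and densest on X (32.5 per Mb). The median distance from a site to the nearest stage 17 H3K9me3 peak was 10 kb. Within 1 kb of one lay 193 sites (6.81%), and 1423 (50.2%) were over 10 kb away. In the other class without H3K9me3 the median was 6.83 kb. Of its 226 peaks, 24 (10.6%) lay within 1 kb and 89 (39.4%) over 10 kb away. The rule left out every peak that overlapped H3K9me3, and the distances of randomly placed peaks were not worked out. Whether the sites keep away from H3K9me3 domains was therefore not tested. The sites were mostly single, with a median gap of 7.35 kb to the next site and 296 (10.5%) within 1 kb of another.

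The sites lay mainly in genes, and within genes mainly in exons. A protein-coding gene was under 2546 of 2832 sites (89.9%, interval 88.7 to 91.0%), against 186 of 226 peaks seen at cycle 14 (82.3%) and 2000 of 2633 peaks with H3K9me3 (76.0%, interval 74.3 to 77.6%). Of the bases under the sites, 38.6% were coding exon, against 35.7% in the peaks seen at cycle 14, 25.2% in the peaks with H3K9me3 and 18.8% of all arm bases. Bases of 5' UTR made up 14.3%, against 5.50%, 7.18% and 3.37%. Introns took 27.4% of the bases under the sites, against 42.3% of the arms, and 3' UTRs took 2.36%, against 5.54%. Coding exon and 5' UTR thus took a larger share of the sites than of the arms, and introns and 3' UTRs a smaller one.

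**Figure D1:**
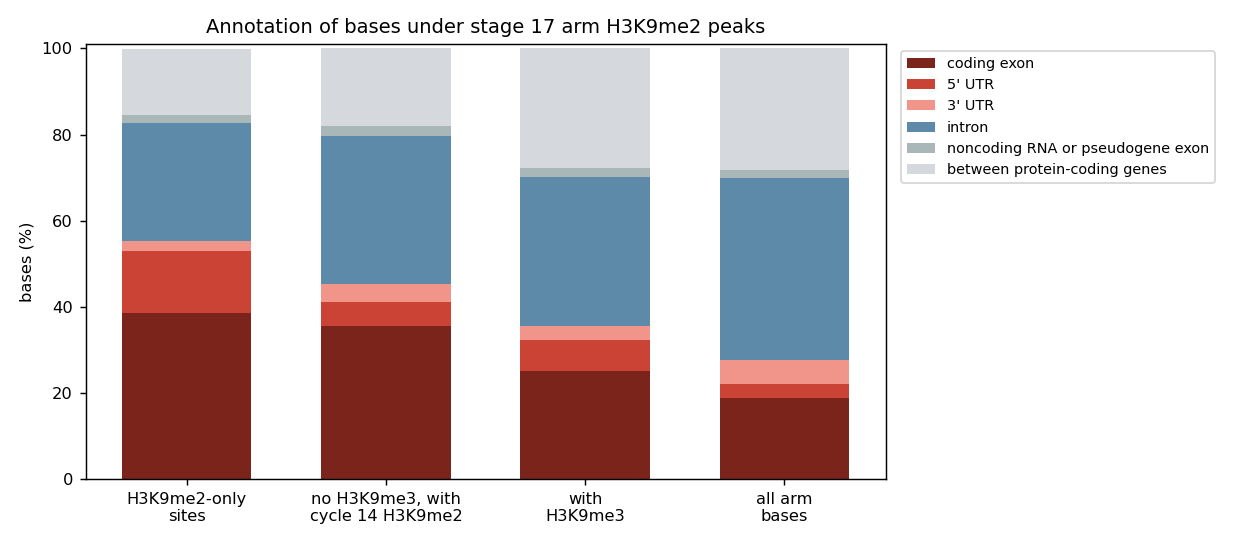
Stacked bars give the share of bases (%, y axis) by annotation for the H3K9me2-only sites, the peaks without H3K9me3 that were seen at cycle 14, the peaks with H3K9me3, and all bases of the analysed arms. Coding exon and 5' UTR together take up most of the first bar (38.6% and 14.3%) and a minor part of the last (18.8% and 3.37%).

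Starts of genes were a common place. Of the sites, 1028 (36.3%, interval 34.5 to 38.1%) came within 250 bp of the annotated start of a protein-coding gene, against 51 (22.6%, interval 17.6 to 28.4%) of the peaks seen at cycle 14 and 668 (25.4%, interval 23.7 to 27.1%) of those with H3K9me3. The background over all arm H3K9me2 peaks of stage 17 was 30.7%. The sites were narrower than the other classes, so width does not favour them in this count, and with only the middle 247 bases of each peak the shares were 28.9%, 17.3% and 16.6%. The midpoints had a median distance of 1047 bp from the nearest start, against 4641 bp and 3469 bp. They lay more often downstream than upstream: 602 sites (21.3%) had their midpoint within 500 bp downstream of a start and 373 (13.2%) within 500 bp upstream, while for the peaks with H3K9me3 these numbers were 279 (10.6%) and 242 (9.19%). Upstream of the start, the profile of the sites fell off quickly, with 298 midpoints in the first 250 bp and 75 in the next.

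**Figure D2:**
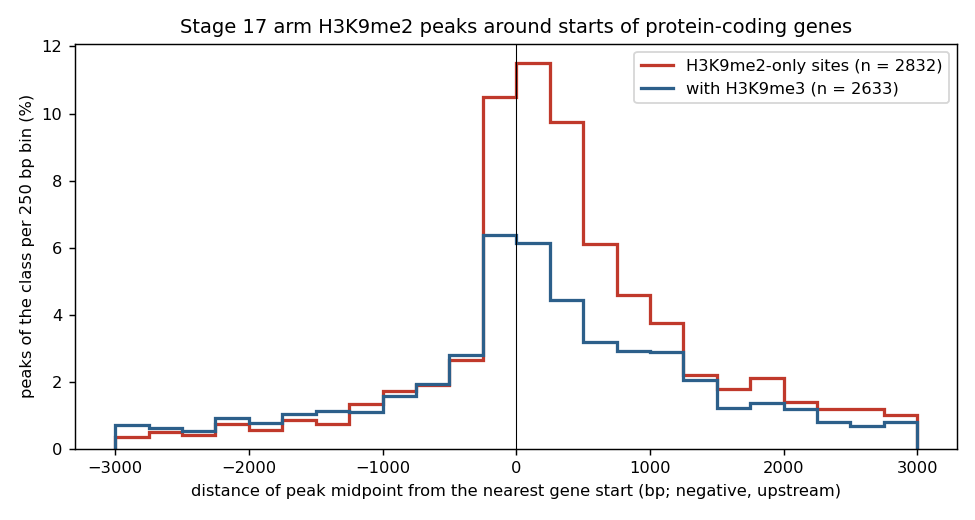
Percent of peaks per 250 bp bin (y axis) by the distance of the midpoint from the nearest start of a protein-coding gene (x axis, bp, negative upstream), for the H3K9me2-only sites and the peaks with H3K9me3. The sites peak at 11.5% in the first bin downstream of the start, where the peaks with H3K9me3 have 6.15%, and in the second bin upstream the lines lie close together (2.65% and 2.81%).

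Of the 10 sites with the highest fold, 7 came within 250 bp of a start. The first was Hel89B, an ATPase of the SNF2 family (chr3R:15973235-15974187, fold 3.11), where 55% of the bases were 5' UTR. It was followed by Oatp74D, the transporter that imports the steroid hormone ecdysone (chr3L:17486799-17487585, fold 3.04), and mib1, the ubiquitin ligase that activates Notch ligands (chr3L:16011304-16012049, fold 2.99). The next was the shared start region of CG34242 and Tsf2, a transferrin of septate junctions (chr3L:12533228-12534322, fold 2.88), which was 244 kb from the nearest H3K9me3 peak. Start regions of CG1907 (fold 2.86) and CG9932 (fold 2.85) were covered just outside the gene, and the site at Unc-115a, an actin-binding protein (chr3R:9704156-9705431, fold 2.81), covered 5' UTR (37% of its bases) and intron (62%).
The 3 strong sites away from starts lay in coding sequence of CG15635 (fold 2.86), in coding sequence of Mlp84B, a muscle LIM protein, within Alh (fold 2.80), and 1918 bp from salm, a homeotic zinc finger factor (fold 2.78).

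The 5 widest sites lay mainly in coding exon, except the one at CG31635 and Tango1. Those at CG16957, at CG31635 and Tango1, and at Mst98Ca and Mst98Cb were over a start. The widest covered 2697 bp of coding exon in Lar, a receptor tyrosine phosphatase of axon guidance, and CG46244 (chr2L:19726217-19728913, fold 2.09). The next were at CG16957 and CG10859 (2477 bp, 82% coding exon), at the starts of CG31635 and Tango1, which acts in secretion of bulky cargo (2426 bp, 76% 5' UTR), in the Toll receptor gene Tl (2415 bp, 95% coding exon), and over the sperm protein genes Mst98Ca and Mst98Cb (2363 bp, 73% coding exon, fold 2.61). Mst98Ca and Mst98Cb are neighbouring copies, so reads may be shared between them.

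Repeats were scarce under the sites. Repeat-masked bases made up 10.7% of the 1.74 Mb covered, against 11.8% in the peaks seen at cycle 14, 22.8% in the peaks with H3K9me3 and 17.4% of the arms. An annotated transposable element was under 69 sites (2.44%, interval 1.93 to 3.07%), against 36 (15.9%, interval 11.7 to 21.3%) and 752 (28.6%, interval 26.9 to 30.3%). Elements covered 1.27% of the bases under the sites and 3.97% of the arms. Only 28 sites (0.989%) were repeat over more than 50% of their length. This held for 6 (2.65%) of the peaks seen at cycle 14, 425 (16.1%) of those with H3K9me3 and 8.07% of all arm peaks.

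Few of the sites appeared in any other methylation list. Of the 14 H3K9me2 and H3K9me3 lists that the rule did not use, none had a peak at 2675 of the 2832 sites (94.5%), against a background of 70.0% over all arm H3K9me2 peaks of stage 17. The rule had already taken out peaks with control H3K9me3 of stage 17 or control H3K9me2 of cycle 14, so this share is not independent of it. In chronological order, control H3K9me2 was called at 3 sites before cycle 9 (0.106%, background 5.55%) and at 42 sites (1.48%, interval 1.10 to 2.00%) at cycle 9-13, and the background over all arm H3K9me2 peaks of stage 17 at cycle 9-13 was 12.9%. Control H3K9me3 of cycle 14 was under 8 sites (0.282%), against a background of 14.2%. Triple mutant H3K9me2 of cycle 14 was under 73 sites (2.58%, interval 2.06 to 3.23%), against a background of 13.9%. These lists differ in depth, with a background level of 4.31 fragments per base in triple mutant H3K9me2 at cycle 14 and 5.96 in control H3K9me2 at cycle 9-13, so weak marks may be missed.

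Few H3K9me3 peaks were called at the sites in the other genotypes of stage 17. The triple mutant had an H3K9me3 peak at 25 sites (0.883%, interval 0.599 to 1.30%), against 1045 (39.7%, interval 37.8 to 41.6%) of the peaks with control H3K9me3 and a background of 19.0%. The zygotic rescue had one at 14 sites (0.494%, background 16.1%) and the maternal rescue at 43 (1.52%, interval 1.13 to 2.04%, background 20.5%). The rule already asked for no H3K9me3 in control embryos of this stage, so these shares are not independent of it. The background levels were 4.80 (triple mutant), 6.39 (zygotic rescue) and 5.62 (maternal rescue) fragments per base, against 9.44 in the H3K9me2 list. Weak H3K9me3 at a site may therefore be missed in these genotypes. H3K9me2 of stage 17 was measured in control embryos only, so whether the sites need the 3 methyltransferases was not measured.
The strongest triple mutant H3K9me3 peaks at sites were at isoQC, a glutaminyl cyclase (chr3L:20474095-20474853, mutant H3K9me3 fold 3.06), at Ste:CG33245, a copy of the X-linked Stellate repeats that piRNAs silence in the testis (chrX:14049519-14049799, fold 3.02), and at Nipsnap (chrX:16073038-16073638, fold 2.96). Stellate genes are near-identical copies, so the position of reads among them is uncertain.

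**Figure D3:**
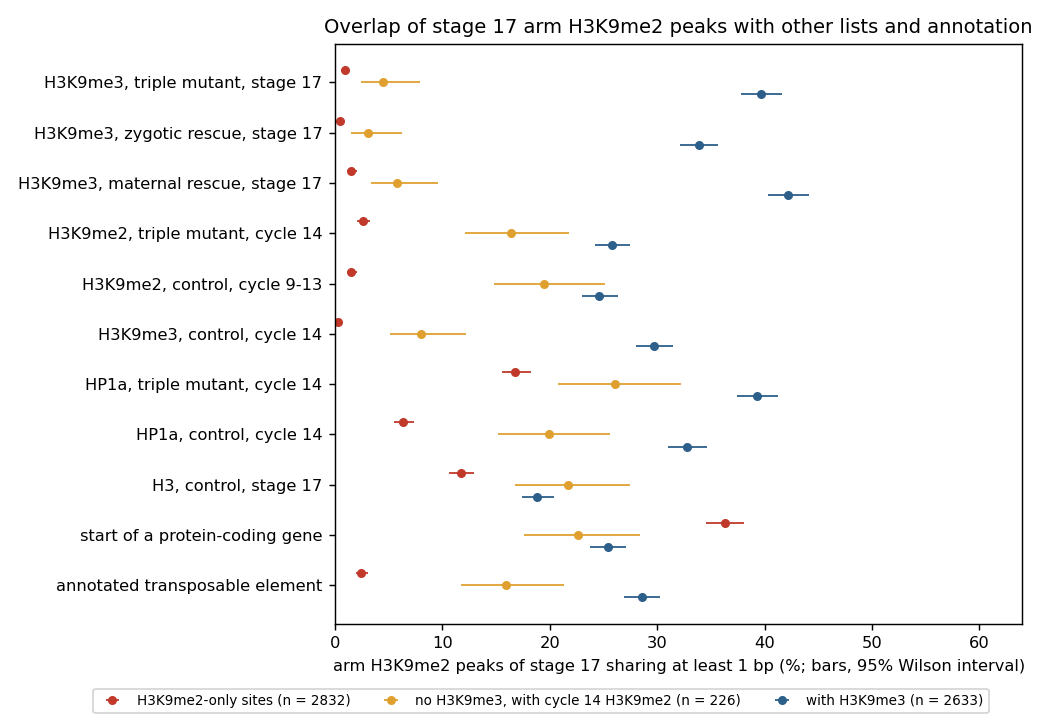
Points give the percent of stage 17 arm H3K9me2 peaks of each class (x axis) that shared at least 1 bp with each of 9 other peak lists and 2 kinds of annotation (y axis), with 95% Wilson intervals as bars. Among those plotted, the H3K9me2-only sites lie lowest for the peak lists and for transposable elements, from 0.282% for control H3K9me3 at cycle 14 to 16.8% for triple mutant HP1a, and highest for gene starts (36.3%).

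HP1a was found at a minority of the sites, and more often in the triple mutant list. A triple mutant HP1a peak of cycle 14 was under 476 sites (16.8%, interval 15.5 to 18.2%, background 27.6%) and a control HP1a peak of cycle 14 under 180 (6.36%, interval 5.52 to 7.31%, background 19.1%). In the peaks with H3K9me3 the corresponding shares were 39.3% (1034 of 2633) in the triple mutant and 32.8% (863) in control. Of the sites, 308 had HP1a in the triple mutant list and not in the control list, 12 had the opposite and 168 had both. The triple mutant list was longer on the arms, with 3435 peaks against 1929, at a similar background level of 4.87 and 4.77 fragments per base, and sites were under 478 (13.9%) and 181 (9.38%) of these HP1a peaks.

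The HP1a lists differed more at gene starts than away from them. Among the 1028 sites over a start, 267 (26%, interval 23.4 to 28.7%) had a triple mutant HP1a peak and 81 (7.88%, interval 6.38 to 9.69%) a control one. Among the 1804 sites away from starts these numbers were 209 (11.6%, interval 10.2 to 13.1%) and 99 (5.49%, interval 4.53 to 6.64%). Of the 308 sites with HP1a in the triple mutant list alone, 193 (62.7%, interval 57.1 to 67.9%) were over a start, against 74 of the 168 (44.0%, interval 36.8 to 51.6%) with HP1a in both. The peaks with H3K9me3 had the same split. Over a start, 257 of 668 (38.5%) had a triple mutant HP1a peak and 132 (19.8%) a control one, and away from starts 777 of 1965 (39.5%) and 731 (37.2%). In the whole arm lists, sites included, 909 of the 3435 triple mutant HP1a peaks (26.5%) and 293 of the 1929 control ones (15.2%) were over a start. The difference is thus not particular to the H3K9me2-only sites.
Of the 10 sites with the highest H3K9me2 fold, 7 had a triple mutant HP1a peak, all but those at CG15635, CG9932 and Mlp84B, and 5 of these also had a control one. The highest HP1a folds were at 3 short sites away from starts and were in both lists. All 3 overlapped annotated insertions of a transposable element with the symbol H, whose copies are similar in sequence, so reads may be shared among them. A site between genes, 10202 bp from btv (chr2L:17952131-17952422), had an HP1a fold of 5.06 in the triple mutant and 5.70 in control. A site in an intron of Rdl, a GABA receptor subunit (chr3L:9165787-9166040), had 5.02 and 5.34 in the same order, and a site 1326 bp from Npc1b, a sterol transporter (chrX:20940830-20941109), had 4.97 and 5.49. The Rdl site also had a control H3K9me2 peak before cycle 9 and at cycle 9-13, and a triple mutant H3K9me2 peak at cycle 9-13.

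Histone H3 itself was called at some of the sites, less often at starts. The 2 samples pooled in the stage 17 H3 list carry the same replicate number, so whether they are separate replicates is not known. A stage 17 H3 peak was under 331 sites (11.7%, interval 10.6 to 12.9%, and 5.49% of the 3204 sites found when an overlap had to cover 50% of the peak), against 49 (21.7%, interval 16.8 to 27.5%) of the peaks seen at cycle 14, 496 (18.8%, interval 17.4 to 20.4%) of those with H3K9me3 and a background of 15.4%. The H3 list of cycle 14 was under 107 sites (3.78%, interval 3.14 to 4.55%, background 9.75%). Among the sites over a start 44 (4.28%, interval 3.20 to 5.70%) had a stage 17 H3 peak, and among those away from starts 287 (15.9%, interval 14.3 to 17.7%). The other classes had the same split, with 5.88% over starts and 26.3% away from them in the peaks seen at cycle 14, and 9.43% and 22% in the peaks with H3K9me3. Of the 10 strongest sites, those in coding sequence of CG15635 and Mlp84B had a stage 17 H3 peak, and of the 5 widest, those at CG16957, Tl and Mst98Ca had one. At the 331 sites the part of H3 density in the H3K9me2 peak was not tested, since the lists give no H3K9me2 signal relative to H3. In all, 1928 sites (68.1%, background 49.3%) had no peak in any of the 18 lists outside the rule, and 695 of these (36.0%) were over a start, a share close to the 36.3% of all sites.

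Stronger sites were more often at starts and under HP1a. From the weakest to the strongest of 4 equal parts by −log10 q in the H3K9me2 list (708 sites each), the share over a start was 28.4%, 31.9%, 37.6% and 47.3%. The share with triple mutant HP1a was 9.60%, 12.4%, 16.7% and 28.5%, and that with control HP1a was 3.53%, 5.08%, 5.23% and 11.6%. The share with a stage 17 H3 peak had no such course, at 9.89%, 13.6%, 11.7% and 11.6%. Sites over a start were also wider, with a median of 582 bp against 474 bp for the others, and the part of width in these shares was not tested. Their median fold was 2.04, against 1.98 away from starts. Peaks over starts were also stronger and wider in the other classes. Median folds were 2.13 against 2.04 with H3K9me3 (961 bp against 769 bp) and 2.06 against 2.00 in the peaks seen at cycle 14 (713 bp against 607 bp). Higher fold at starts is thus not particular to the sites.

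**Figure D4:**
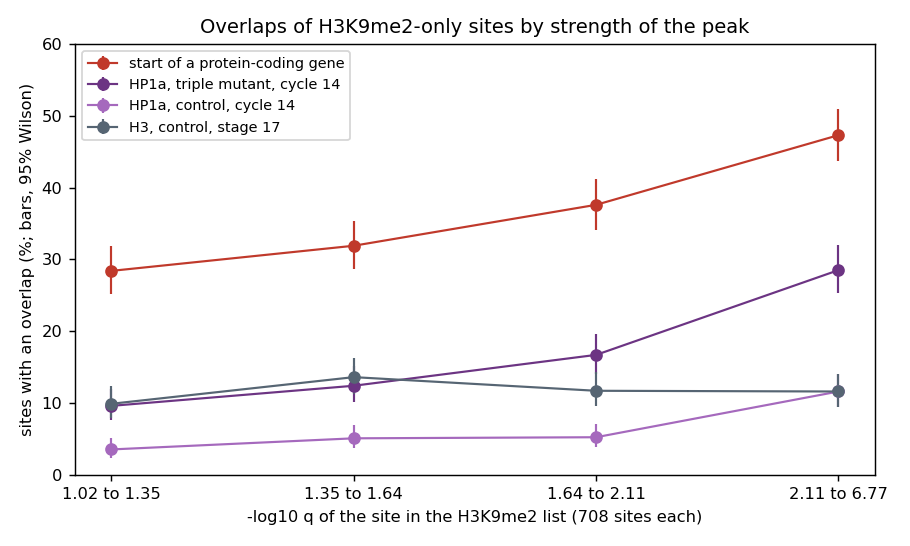
Percent of H3K9me2-only sites with each overlap (y axis, bars are 95% Wilson intervals) in 4 parts of 708 sites by −log10 q in the H3K9me2 list (x axis). Gene starts (28.4% to 47.3%) and triple mutant HP1a (9.60% to 28.5%) go up with strength, while H3 stays between 9.89% and 13.6%.

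The base composition of the sites differed from that of the arms. The middle 300 bases of the sites had a mean GC content of 47.5%, against 45.8% in the peaks seen at cycle 14, 44.6% in the peaks with H3K9me3 and 42.4% in all 300-base windows of the arms. Sites away from starts had 48.8% and those over a start 45.0%. GAGAG, on either strand, was in 1150 of 2832 windows (40.6%, interval 38.8 to 42.4%), against 38.1% and 39.4% in the other classes, 29.9% of all arm windows and 30.6% of 300-base windows centred on starts. It was in 36.4% of the sites over a start (interval 33.5 to 39.4%) and 43.0% of those away from starts (interval 40.7 to 45.3%), while the 4 printed windows are all at starts. CACACACA, on either strand, was in 344 (12.1%, interval 11 to 13.4%), against 8.85%, 8.47%, 6.66% and 4.51%. TATCGATA, the element known from promoters of housekeeping genes, was in 54 of the 1028 sites over a start (5.25%, interval 4.05 to 6.79%), against 8.49% of all starts, and in 10 of the 1804 other sites (0.554%). CAGGTAG, the motif of the zygotic activator Zelda, was in 61 sites (2.15%, interval 1.68 to 2.76%), against 2.16% in the peaks with H3K9me3 and 1.59% of arm windows. Windows of peaks over starts are centred on the peak, not on the start, which limits the last comparisons with starts.

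By gene, 2745 of the 10817 protein-coding genes on the arms (25.4%) had a site over them or within 250 bp of their start, and 1474 (13.6%) had one at the start. Counting only sites over the gene itself, and not those just upstream, 2077 genes had 1 site and 416 had 2 or more, of which 130 had 3 or more. The share of genes with a site went up with gene length: 14.9% of the 5070 genes under 2 kb had one, 28.7% of the 4239 genes of 2 to 10 kb, 48.0% of the 1274 genes of 10 to 50 kb and 69.7% of the 234 longer genes. At starts, which do not depend on length in this way, the shares were 11.3%, 15.4%, 17.0% and 14.1%.

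The genes with the most sites were long ones. Plc21C, a phospholipase C, held 7 sites in 49.6 kb and no arm peak with H3K9me3, toc, a microtubule-associated protein of oogenesis, held 7 in 76.4 kb, and shakB, an innexin of gap junctions, held 7 in 166 kb beside 9 peaks with H3K9me3. The genes with 6 sites were sima, the hypoxia-inducible factor of flies (63.5 kb), Shab, a voltage-gated potassium channel (64.6 kb, no peak with H3K9me3), and kirre, an adhesion protein of myoblast fusion (394 kb). The shortest of the genes with 5 were lobo, a component of the sperm flagellum (24.2 kb, 2.07 sites per 10 kb), S, which acts in traffic of an EGF receptor ligand (28.1 kb), Imp, an mRNA-binding protein (36.4 kb), and B4 (48.7 kb). Of these 10 genes, 4 held no peak with H3K9me3, namely Plc21C, Shab, lobo and S.

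Among gene groups, genes of neurons and muscle held sites most often. Of 95 neuronal channel, synapse and adhesion genes, 46 (48.4%, interval 38.6 to 58.3%) had a site, with a median gene length of 36.5 kb against 2.17 kb for all protein-coding genes, and 48.0% of all genes of 10 to 50 kb had one. At starts 13 of the 95 (13.7%) had a site, close to the 13.6% of all genes. Peaks with H3K9me3 were about as frequent in both groups, at 43 of the 95 neuronal and 10 of the 22 muscle genes, against 17.3% of all genes (1866). Those with the highest fold were nAChRbeta1, a nicotinic acetylcholine receptor subunit (2.69, a 2120 bp site within the gene), Shab (2.53), nAChRalpha5 (2.46, at the start), Csp, a synaptic vesicle chaperone (2.41, at the start), CASK, a synaptic scaffold (2.4, at the start), and the teneurin Ten-a (2.37). The 22 muscle structure genes had a median length of 9.43 kb, and 28.7% of all genes of 2 to 10 kb had a site. Of these 22 muscle genes, 11 (50%, interval 30.7 to 69.3%) had a site, and 3 (13.6%, interval 4.75 to 33.3%) had it at the start. They included Mlp84B (2.80), mbc, which acts in myoblast fusion (2.43, at the start), the troponin C gene TpnC25D (2.24), the actin genes Act87E (2.14) and Act88F (2.10), and the tropomyosin gene Tm1 (2.13, at the start). Actin genes are similar in sequence, and reads may be shared among them.

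Groups near the background were regulators, ribosomal proteins, heterochromatin genes and germline genes. Of 74 homeotic and other developmental regulators, 15 (20.3%, interval 12.7 to 30.8%) had a site and 6 (8.11%) had it at the start. A peak with H3K9me3 was in 11 of the 74, and 17.3% of all protein-coding genes had one. The regulators had a median length of 11.7 kb, and their share with a site was under the 48.0% of all genes of 10 to 50 kb. Those named by fold were hth with 5 sites (highest fold 2.64), grn (2.4, at the start), Abd-B (2.38), D (2.28), drm (2.22) and zfh1 (2.16, at the start). Of 67 ribosomal protein genes (median length 1.39 kb), 13 (19.4%, interval 11.7 to 30.4%) had one and 9 had it at the start, such as RpS20 (2.27), RpS28a (2.23), RpS13 (2.21) and RpS12 (2.05), and RpL34b (2.08) had one within the gene. Of 41 genes for heterochromatin proteins and H3K9 methyltransferases (median length 1.02 kb), 9 (22%, interval 12 to 36.7%) had a site. They included Su(var)3-7, a partner of HP1a (2.42, at the start), mod(mdg4), a chromatin insulator protein (2.30), HP4, an HP1-binding protein (2.24, at the start), the methyltransferase gene Su(var)3-9 itself (2.20, at the start), CoRest, a corepressor (2.18), and E(var)3-9 (1.99, at the start). This list also took in the short His1 copies of the histone cluster by their symbol. Its share and median length are therefore not those of heterochromatin proteins alone. The histone gene with a site is a His1 copy and is counted in both lists. Of 46 germline and testis genes (median length 2.39 kb), 13 (28.3%, interval 17.3 to 42.5%) had a site, with Mst98Ca and Mst98Cb (2.61 over a shared site), bol, a meiotic regulator (2.13), mei-P26 (2.09, at the start), Sxl, the switch gene of sex determination (2.09), and squ (2.07, at the start).

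Groups below the background of all protein-coding genes (25.4%) were chemosensory receptor, cuticle, secretory, histone and tRNA genes, the last of which are not protein-coding. They were short, with median lengths of 0.073 to 1.69 kb, and 14.9% of all protein-coding genes under 2 kb had a site. That share is within the interval of the chemosensory receptor genes and above those of the other groups here. The part of gene length in the order of the groups was not tested. Of 132 chemosensory receptor genes, 16 (12.1%, interval 7.60 to 18.8%) had a site, at a median length of 1.69 kb, and 5 had it at the start. The highest were Ir11a (2.32), Gr93c (2.20), Or23a (2.17), Ir20a (2.14), Ir76b (2.11) and Gr36c (2.10). Of 93 genes in the cuticle list, 5 (5.38%, interval 2.32 to 12%) had one, namely Cpr35B (2.08), Pcp (1.93), Cpr67B (1.88), Cpr92F (1.86) and Cpr (2.20), which was included by its symbol but encodes the cytochrome P450 reductase. Of 48 genes for larval, follicle cell and accessory gland secretion, 0 had a site, which allows a share of up to 6.25% (3 counts of 48). A peak with H3K9me3 was in 8 of the 48, and 17.3% of all protein-coding genes had one. The histone cluster, whose copies are near identical, had a site at 1 of 111 genes (0.901%) and peaks with H3K9me3 at 55. Among tRNA genes, which are transcribed by RNA polymerase III, 14 of 192 (7.29%, interval 4.39 to 11.9%) had a site, against 33 with a peak with H3K9me3. The highest were at tRNA:Tyr-GTA-1-9 (2.45), tRNA:Glu-CTC-3-8 (2.21), the neighbours tRNA:Pro-AGG-1-6 and tRNA:Pro-AGG-1-5 over a shared site (2.19), tRNA:Asp-GTC-2-1 (2.16) and tRNA:Phe-GAA-1-3 (2.11).

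**Figure D5:**
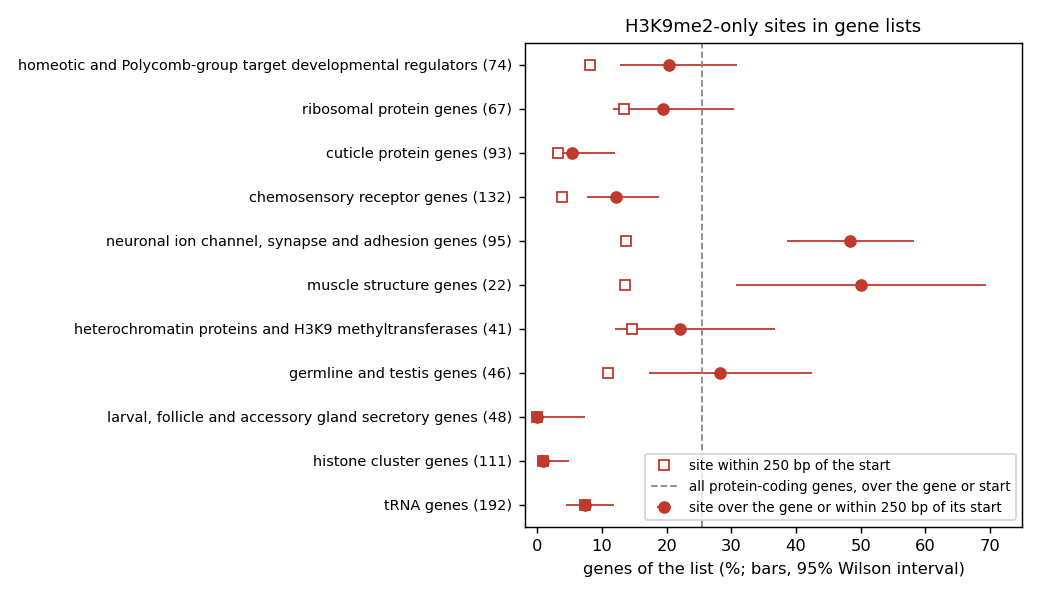
Filled circles give the percent of genes of each list (x axis, list sizes in parentheses) with an H3K9me2-only site over the gene or within 250 bp of its start, with 95% Wilson intervals, open squares give the percent with a site at the start, and the dashed line is the share of all protein-coding genes (25.4%). Neuronal (48.4%) and muscle genes (50%) lie to the right of the line by the filled circles, while their open squares (13.7% and 13.6%) lie at the 13.6% of all gene starts.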

How the data were processed

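CUT&Tag reads were, per the study's methods, trimmed, aligned by Bowtie2 in local mode within the snakePipes workflow, against dm6 joined with the lambda phage genome, and freed of duplicates. The submitters' processing notes also name FastQC, deepTools and MACS2. Reads with a low mapping quality were kept, so reads may be shared between near-identical copies. The broad mode of MACS2 called the peaks, with a q of 0.05 and no control library stated, and the H3 lists are narrow peaks. In the broad H3K9me2 list of stage 17 the smallest −log10 q was 1.02, below the 1.30 of that q. The stated q was thus not the lower limit of that list. In the narrow H3 list of stage 17 the smallest was 1.41. Each deposited list holds the positions of its peaks, the fold ratio over the list's own background, and the −log10 of p and q as the authors' caller wrote them. The deposited score and the deposited summit column (other) were not used. Lists pool the samples of a condition and hold no read totals, so depth was worked out from fold and p as the lowest 5% bound of the solved backgrounds, under a Poisson model. Where a sample's label names a list of another group, the list's own name decided. Both control and triple mutant samples name the H3 list of cycle 14.

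The members and the gene lists were chosen with earlier results of these data known. Peaks overlapped when they shared at least 1 bp. Genes were those of Ensembl annotation release 115 on Release 6, repeats were the lower-case bases of the RefSeq genome of the same build, and each gene had 1 start, the outer end of its annotation. The chromosome borders are round values. Coordinates count from 1. Sites were named by rule: the 10 of highest fold, the 5 widest, the 10 genes holding most sites (ties to the shorter gene), up to 6 genes of each list by fold, 3 sites each of highest fold in the triple mutant H3K9me3 and both HP1a lists, and those at the edge of the rule. A gene that the rule names is not reported here. Motifs were sought on both strands in the middle 300 bases. Scripts ran in Python 3.11.15 with numpy 2.4.6, pandas 2.3.3 and scipy 1.17.1, and overlaps were tested on simulated intervals.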

Additional observations from a re-analysis of the deposited data

How the results depend on the processing

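No paired analysis was possible because the lists pool the samples of a condition and no result comes from a test. For the same reason no single sample could be left out, and only the 2 lists of control stage 17 H3K9me3 could be left out in turn. Of 43 recomputed values, 22 stayed within the 95% interval of the value in the report (counts within 1.5 times) and 21 moved. A −log10 q of 2 or more in the H3K9me2 list left 832 sites in place of 2832, with control HP1a at 10.7% in place of 6.36% and starts at 45.9% in place of 36.3%. At 3 or more, 182 sites remained, with control HP1a at 21.4%, triple mutant H3K9me3 at 1.65% in place of 0.883%, stage 17 H3 at 10.4% in place of 11.7% and starts at 55.5%. Requiring 50% of the peak to be covered gave 4.56% for control HP1a, 0.593% for triple mutant H3K9me3 and 5.49% for H3. With only the H3K9me3 list of the same experiment, triple mutant H3K9me3 was at 1.41% of sites. With only that of the other experiment it was at 1.48% and control HP1a at 7.52%. Start windows of 100 bp and 1000 bp gave 29.6% and 54.3%. Annotated transposable elements covered 1.27% of the bases, in place of 10.7% for masked repeats. After seeing the data, 2 alternatives were added: the middle 247 bases of each site gave 5.37% for control HP1a, 9.78% for H3 and 28.9% for starts, and the starts of all annotated transcripts gave 43.5%. Leaving out peaks within 1 kb of the excluded ones (2597 sites) and moving the borders by 1 Mb (2702 sites) moved none of the 5 values. Depth limits what an absent peak can show in every list.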
